A study of Mus musculus with 4 samples.

Results

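A miRNA is cut from a hairpin precursor as a short duplex. One strand of the duplex, the guide, is usually kept in an Argonaute protein, where it pairs with messenger RNAs mainly through its seed. The other strand, the passenger or star strand, is usually released and degraded, so that the older miRNA names mark it with an asterisk. Which strand is kept is known to depend on the pairing stability of the duplex ends and on the base at the 5′ end of each strand, and for some hairpins both strands are kept. The assays described here are the 110 of the 517 mouse miRNA assays of the series whose name ends in an asterisk. Each was set beside the assay of the same name without the asterisk, called the guide assay, which 93 of the 110 had.

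Levels were measured in bronchoalveolar stem cells (BASCs), lung cells with markers of both airway and alveolar epithelium, to ask which miRNAs change when the transcription factor c-Myc is depleted. The cells came from lungs of ICR mice aged 4 to 6 weeks, were sorted as CD31-, CD45-, CD34+ and Sca1+, and were plated on irradiated mouse embryonic fibroblasts. The study's text names dishes coated with collagen for later passages, whereas its methods name passage onto mouse embryonic fibroblasts. The 2 c-Myc depleted samples were lines that carried a lentiviral c-Myc shRNA and had been selected with puromycin, and the 2 control samples are labelled as control BASCs. By the methods, the shRNA vectors held a puromycin resistance gene and EGFP and a negative control vector was used, whereas the text calls the comparison group wild type, and which vector each sample carried is not given in the sources used here. RNA of each sample was run on a pair of TaqMan cards, A and B, of 384 wells each, and a well gives its threshold cycle (CT). A CT that is 1 cycle lower stands for about a doubling of the template, so higher values mean less RNA. Nothing states that the 2 samples of a group came from separate mice or cultures, and p-values then measure only the spread between these samples, which may be technical.

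All 110 star assays lay on card B, and the guide assay lay on card A for 87 hairpins and on card B for 6. To correct for the RNA input of a card, the average U6 CT of that card was subtracted from each CT to give ΔCT. The mean U6 CT fell by 0.15 cycles from control to depleted BASCs on card A and fell by 0.72 cycles on card B. The signed change of a star assay therefore depends on this subtraction, and changes of star assays are given below with and without it. The cards were also read against miRNAs typical of epithelium, of which BASCs carry markers, and of other cell types. Of 5 epithelial miRNAs (miR-200a, miR-200b, miR-200c, miR-141 and miR-429) only miR-200c had a CT below 35 in every sample, at 32.99 to 33.99, and the lowest CT of the list was 31.54. Of 5 mesenchymal miRNAs 4 had a CT below 35 in every sample, and miR-145 was read at 24.83 to 24.99. The summed level of the epithelial list had a ΔCT of 11.2 to 12.7 in control and 13.3 to 13.5 in depleted BASCs, and that of the mesenchymal list 4.66 to 4.86 and 4.32 to 4.38. In these sums and those below, an assay without a CT below 35 counts as 35, so a sum with such assays is an upper bound on the level. In both depleted samples miR-200c was the only epithelial miRNA below CT 35. Both endothelial miRNAs of the list, miR-126-3p and miR-126-5p, were below CT 35 in every sample, with a summed ΔCT of 9.68 to 9.86 in control and 11.79 to 11.96 in depleted BASCs. miR-126-3p was read at 28.81 and 28.83 in control and at 30.73 and 30.97 in depleted BASCs. Of 5 blood miRNAs 1 was below CT 35 in every sample, with a summed ΔCT of 11.7 to 13.3 and 12.6 to 13.8, and of 4 muscle miRNAs 1 was, with 13.4 in both controls and 11.6 to 13.5 in depleted BASCs, while miR-1 and miR-133b gave no CT below 35 in any sample. The bulk samples cannot tell fewer cells of a type from less RNA per cell, and whether feeder fibroblasts were present in the profiled cultures is not given in the sources used here. The part of these differences in the results below was not tested.

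The mature sequences of the strands on which the results turn are shown 5′ to 3′, with the seed, bases 2 to 8, in capitals. They were taken from RefSeq on the mouse build GRCm38.p6. The first set holds hairpins whose star assay was read at a lower ΔCT than the guide assay or was among the strongest star signals, and the second holds hairpins whose star assay had an unadjusted p below 0.05 or lay far behind its guide.
miR-30a*: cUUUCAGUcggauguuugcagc
miR-30a: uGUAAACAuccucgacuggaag
miR-30e*: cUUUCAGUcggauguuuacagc
miR-30e: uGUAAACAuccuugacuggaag
miR-34c*: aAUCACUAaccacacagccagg
miR-31*: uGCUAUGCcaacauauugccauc
miR-31: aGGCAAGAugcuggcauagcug
miR-214*: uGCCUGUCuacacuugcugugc
miR-214: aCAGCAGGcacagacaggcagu
miR-877*: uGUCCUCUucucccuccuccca
miR-877: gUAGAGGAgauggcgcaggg
miR-7a*: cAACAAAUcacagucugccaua
miR-7a: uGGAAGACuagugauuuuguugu
miR-183*: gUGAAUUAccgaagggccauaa
miR-183: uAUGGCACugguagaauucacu

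The second set, of hairpins with a low unadjusted p for the star or a large lead of the guide, is the following.
miR-28*: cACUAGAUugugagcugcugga
miR-28: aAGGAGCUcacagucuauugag
miR-130b*: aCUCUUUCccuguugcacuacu
miR-130b: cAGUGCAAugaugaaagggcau
miR-186*: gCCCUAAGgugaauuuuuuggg
miR-186: cAAAGAAUucuccuuuugggcu
miR-20a*: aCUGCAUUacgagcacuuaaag
miR-20a: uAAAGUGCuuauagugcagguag
miR-29a*: aCUGAUUUcuuuugguguucag
miR-29a: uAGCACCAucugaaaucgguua

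The star strand of miR-30a lies at chr1:23272315-23272336 on the plus strand, outside any other annotated gene of the RefSeq table. That of miR-30e lies at chr4:120772618-120772639 within the bounds of Nfyc, which encodes a subunit of the transcription factor NF-Y. The star strand of miR-34c lies at chr9:51103044-51103065, within the bounds of Hoatz and Btg4. The star strand of miR-31 lies at chr4:88910577-88910599 within the long non-coding RNA gene Gm49890, and that of miR-214 at chr1:162223397-162223418 within Dnm3 and its non-coding neighbour Dnm3os. The star strand of miR-877 lies at chr17:35960731-35960752 within Abcf1, and miR-877 is known as a mirtron, a hairpin that splicing itself releases from a short intron. That of miR-7a lies at chr13:58392800-58392821 within Hnrnpk, and that of miR-20a at chr14:115044219-115044240 in the miR-17 cluster. The RefSeq table used gives gene bounds and no exons, so that exonic and intronic positions were not read from it.

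Among the hairpins whose seeds were compared, those with a common guide seed mostly had different star seeds. The comparison took in hairpins whose star assay was detected in every sample, with miR-17 and miR-106b added. Other hairpins on the cards were not compared, and groups that they would form or join are not counted. Of the compared hairpins with both strands in RefSeq, 13 fell into 5 groups with an identical guide seed. In 1 of these 5 groups the star seeds were identical as well. That group is miR-30a and miR-30e, whose guides have the seed GUAAACA, whereas UUUCAGU is the seed of both stars. The guides miR-17, miR-20a, miR-93 and miR-106b share the seed AAAGUGC, whereas the star seed of miR-17 is CUGCAGU, that of miR-20a is CUGCAUU, that of miR-93 is CUGCUGA and that of miR-106b is CGCACUG. The star seed of miR-29a is CUGAUUU while that of miR-29b is CUGGUUU, and the star seed of miR-27a is GGGCUUA while that of miR-27b is GAGCUUA. A fall or rise of 1 member's star assay is therefore a reading on a different seed from that of its relatives in each of these groups except miR-30. Among 28 hairpins with both sequences and both assays detected in every sample, the first base was U in 16 guides and 5 stars, and C in 5 guides and 10 stars.

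A CT below 35 was given by 59 of the 110 star assays in 1 sample or more, and by 40, or 36.4%, in every sample. The remaining 51 gave no CT below 35 in any sample. Among the 407 other mouse assays 36.6% passed in all samples, and among the 72 others on card B 26.4% did. The guide assays were read more often, 60 of 93 in all samples, or 64.5%. Control replicates 1 and 2 had 49 and 51 star assays below CT 35, and the corresponding numbers after depletion were 48 and 49. miR-196a* was the only star assay below CT 35 in both samples of one group and in neither of the other. Its wells gave 34.40 in depleted replicate 1 and 34.80 in depleted replicate 2, each in 1 of 2 wells, and no CT in the controls. It stood at the edge of the measurable range, and no level in the controls can be given. A plant miRNA assay that serves as a blank gave no CT.

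For 93 hairpins both strands could be compared in detection. Both strands were below CT 35 in all samples for 31 hairpins, the guide alone for 29, the star alone for 3 and neither for 30. The 15 hairpins whose guide was read in all samples and whose star in none were led by miR-145, a miRNA of smooth muscle and fibroblasts. Its guide was read at 24.98 and 24.88 in the controls and at 24.99 and 24.83 after depletion, so that its star lay at least 10.01 cycles behind in CT. The guides miR-19a, miR-92a and miR-30b also had silent star assays, at least 8.02, 7.04 and 7.01 cycles behind. The 3 hairpins with the star alone in all samples were miR-135a, miR-425 and miR-674. The miR-135a* assay was read at 31.92 and 31.80 in control and 30.90 and 31.68 in depleted BASCs, while its guide reached 33.87 in control replicate 2 and gave 35 in the other samples. For miR-425 and miR-674 the guide gave no CT below 35 in control replicate 1 alone. The miR-425 guide was read at 27.99 in control replicate 2 and at 28.41 and 28.98 after depletion.

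The strongest star signals came from few hairpins. The 10 star assays with the lowest mean ΔCT were miR-31*, miR-214*, miR-30a*, miR-34c*, miR-30e*, miR-24-2*, miR-467a*, miR-28*, miR-27a* and miR-15b*. miR-31* was read at a CT of 27.97 and 27.66 in control and 27.38 and 27.96 in depleted BASCs. miR-214*, whose hairpin is transcribed with a miR-199a hairpin in mesenchymal cells, was read at 28.41 and 27.97 in control and 27.51 and 27.85 in depleted BASCs. miR-30a* was read at 28.02 and 27.88 in control and 28.18 and 28.77 in depleted BASCs, and the groups did not overlap. miR-34c*, from a hairpin of the p53-responsive miR-34 family, was read at 28.58 and 28.95 in control and 27.77 and 27.95 in depleted BASCs. The mean ΔCT of miR-31* was 8.12 ± 0.428 (SD, n = 2) in control BASCs, and those of miR-30a* and miR-214* were 8.25 ± 0.306 and 8.49 ± 0.519 (SD, n = 2 each). The order of these 3 is within their spread. miR-34c* followed at 9.07 ± 0.0547 and miR-30e* at 9.17 ± 0.264 (SD, n = 2 each), also within their spread. The remaining 5 lay between 9.86 and 10.2 in control BASCs. miR-467a* belongs to a group of near-identical hairpins, and its assay may not tell them apart. The median over the 40 star assays was 12.5, against 10.5 over the 60 guide assays, and a CT limit of 32 in all samples left 17 star assays.

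**Figure D1:**
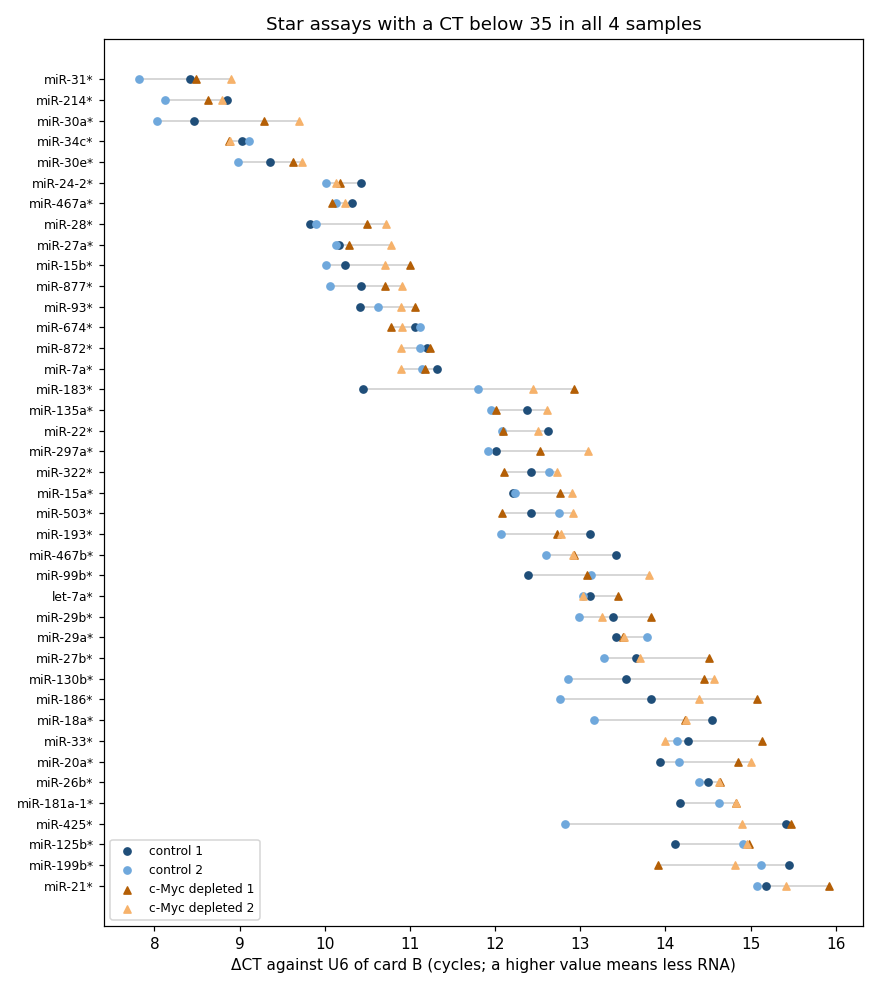
ΔCT in cycles on the x axis (higher means less RNA) of the 40 star assays with a CT below 35 in all 4 samples, sorted by mean ΔCT; circles are the 2 control samples, triangles the 2 c-Myc depleted samples, and grey lines span the 4 values. Only 5 assays sit below a ΔCT of 10 in all 4 samples, and triangles lie to the right of circles, without overlap, for 19 assays and to the left for 3.

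The duplicate wells show how firm these readings are. Of the 110 star assays 70 had 2 wells and 40 had 1. Over 112 readings with a CT in both wells the median gap was 0.425 cycles, and the 90th percentile was 1.33. The widest gap, 2.96 cycles, was that of miR-20a* in control replicate 2, whose wells read 35.97 and 33.02. In 15 star assays at least 1 sample had a CT in only 1 of the 2 wells, and 3 of these, miR-125b*, miR-181a-1* and miR-27b*, were among the 40. The wells of miR-30a* read 28.08 and 27.95, 27.93 and 27.83, 28.10 and 28.25 and 28.95 and 28.58, in the order control replicate 1, control replicate 2, depleted replicate 1 and depleted replicate 2. The fractional part of the CT was 0.9 or more in 39.6% of 328 star readings and in 48.1% of 842 readings of the other mouse assays, where an even spread would give 10%. By sample it was 16 of 80 star readings in depleted replicate 1, 42 of 85 in depleted replicate 2, and 32 of 81 and 40 of 82 in the controls. What this piling of CT values below whole cycles does to the changes below was not tested.

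The main comparison asked which star strands changed with c-Myc depletion. It was fitted with limma over all 189 mouse miRNAs with a CT below 35 in every sample, and the log2 change is positive where the level was higher after depletion. No star assay of 40 had an adjusted p below 0.05, against 12 of the 189 miRNAs, or 6.35%. The unadjusted p was below 0.05 for 9 star assays in limma, all lower after depletion, where 8.99% of the 189 were lower at that limit. Of the 19 other tested assays of card B, 6 had such a p, all lower. The one-way analysis of variance per miRNA that the methods name gave 0 calls after adjustment and 4 at an unadjusted p below 0.05. The smallest p that an exact two-sided permutation test can give with 2 samples against 2 is 0.333. After subtraction of U6, 28 star assays were lower and 12 higher (median -0.38 on the log2 scale), whereas without a reference 31 were higher and 9 lower (median 0.34). The 19 other tested assays of card B had medians of -0.50 and 0.22, and the 130 of card A 0.41 and 0.56. Without a reference the median of all 189 miRNAs moved from 0.09 to 0.46. With each card centred on its own median the star median was 0.06. It is held near 0 by construction, since the tested assays of card B are 40 star assays and 19 others. The groups did not overlap for 22 star assays, 19 lower and 3 higher, where 25.4% of the 189 were lower and 33.9% higher without overlap. Of the 19 others on card B, 11 were lower and 3 higher without overlap. Before U6 was subtracted 22 also did not overlap, now 3 lower and 19 higher, where the background was 7.41% lower and 45.5% higher. Among the 19 others on card B, 3 were then lower and 6 higher.

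**Figure D2:**
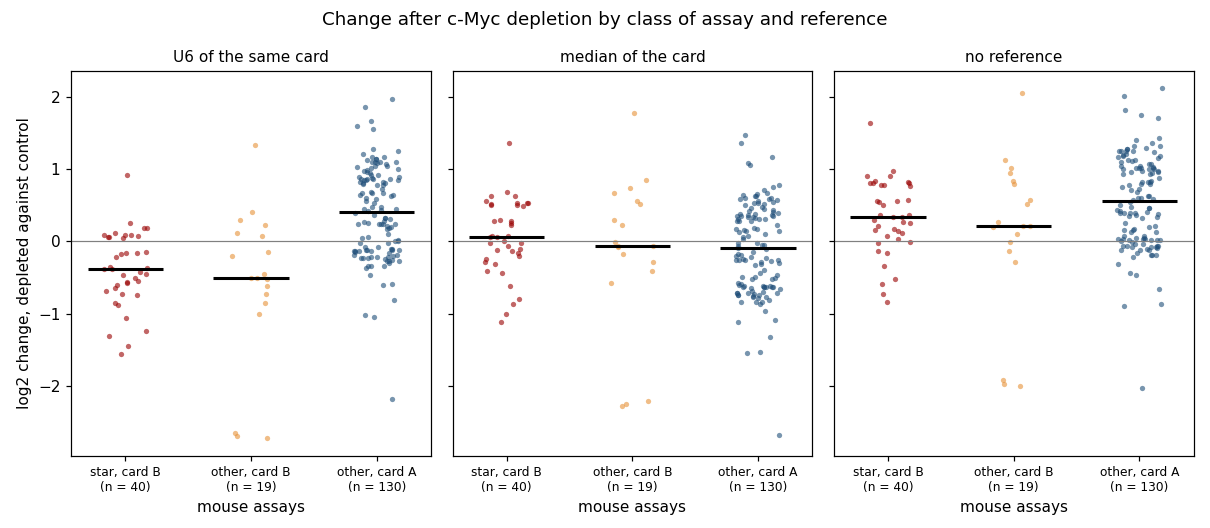
Log2 change after c-Myc depletion (y axis) of each tested mouse assay, by class (40 star assays and 19 others on card B, 130 others on card A) and by reference (U6 of the same card, the median of the card, or none); points are assays, spread sideways at random, and bars are class medians. The star median moves from -0.38 with U6 to 0.06 with card medians and 0.34 with no reference, and the median of the other card B assays from -0.50 to -0.06 and 0.22. Card medians hold the star median near 0 by construction, since star assays are most of the tested assays of card B.

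miR-30a* had the lowest adjusted p among star assays, together with miR-20a* and miR-130b*. Its ΔCT was 8.47 and 8.03 in control and 9.29 and 9.70 in depleted BASCs, so that both depleted samples lay above both controls. Its level was 2.37-fold lower, a log2 change of -1.25 with a standard error of 0.27, and limma gave an adjusted p of 0.0697. Over the 80 miRNAs with a lowest ΔCT below 10, the filter of the study, 32.5% were called, and miR-30a* and miR-28* were the 2 called of 6 star assays (adjusted p = 0.0334 and 0.0328 by limma). A fold change above 2 with an unadjusted p below 0.05 and a lowest ΔCT below 10, the criteria of the study, was met by miR-30a* alone among star assays, and 1.59% of the 189 met them in the lower direction, with the p taken from limma. With the one-way analysis of variance that the study used no star assay met them, since the unadjusted p of miR-30a* was then 0.0529. Without a reference miR-30a* was still lower, by a log2 change of -0.52. Its guide, miR-30a, was read at 30.13 and 29.95 in control and 29.87 and 29.96 in depleted BASCs, a change of -0.02 on the log2 scale (limma, adjusted p = 0.944). miR-30e*, with the same seed as miR-30a*, had a log2 change of -0.51 (limma, adjusted p = 0.210), which turned to 0.21 without a reference.

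The other 8 star assays with an unadjusted p below 0.05 were singled out after their values were seen, apart from miR-183*, miR-20a*, miR-28* and miR-15b*, which the rule for named assays takes in. miR-130b* was read at 33.08 and 32.70 in control and 33.33 and 33.63 in depleted BASCs, a log2 change of -1.31 (standard error 0.29) and of -0.59 without a reference. miR-183*, from a cluster known from sensory organs, had a ΔCT of 10.45 and 11.80 in control and 12.93 and 12.44 in depleted BASCs. Its log2 change was -1.56 (standard error 0.53) with U6 and -0.84 without a reference, the lowest of the 40 in both, and the SD of its ΔCT in the controls was 0.955 (n = 2). miR-186* was read at 33.38 and 32.60 in control and 33.97 and 33.46 in depleted BASCs, a log2 change of -1.44 and of -0.72 without a reference. miR-28*, from a hairpin within Lpp, had a ΔCT of 9.82 and 9.89 in control and 10.5 and 10.7 in depleted BASCs, a log2 change of -0.75, of which -0.03 was present before U6 was subtracted. miR-20a*, miR-297a* and miR-15b* had log2 changes of -0.88, -0.85 and -0.73 with U6 and of -0.16, -0.13 and -0.0047 without. miR-15a* had -0.60 with U6 and 0.12 without, so that its direction rested on the reference. The adjusted p of these 8 ranged from 0.0697 to 0.137. The largest positive log2 change among star assays was that of miR-199b*, also singled out afterwards, at 0.92 (limma, adjusted p = 0.193) with U6 and 1.65 without. Its wells gave 35.56 and 34.99 in control replicate 1 and 35.41 and 34.94 in control replicate 2, at the ceiling, and its CT was 32.79 and 33.88 after depletion.

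By hairpin family, star strands of the oncogenic miR-17 clusters, whose transcription c-Myc is known to activate, were on the cards for 8 hairpins. Of these miR-18a*, miR-20a* and miR-93* were below CT 35 in every sample, and 3 (miR-19a*, miR-20b* and miR-92a*) in none. All 3 measured in every sample had negative log2 changes with U6, with a median of -0.46, and none passed the test. Without a reference the median was 0.26, miR-93* had 0.26 and miR-18a* 0.34, and miR-20a* alone stayed negative, at -0.16. In control replicate 2 the miR-20a* wells read 35.97 and 33.02, and the first was set to 35. Whether the sign holds with that well as read was not tested. miR-93* was read at 29.96 and 30.47 in control and at 29.95 and 29.96 in depleted BASCs. miR-106b* gave no CT in either well of control replicate 1 and was read at 32.36 in control replicate 2 and at 31.67 and 32.04 after depletion. miR-17* stood at 34.77 and 34.99 in control and at the ceiling and 34.51 in depleted BASCs, too close to the ceiling for a change to be read. In the miR-34 family miR-34c* alone is on the cards, and its log2 change was 0.19 (standard error 0.18, adjusted p = 0.583 by limma), with 0.91 before U6 was subtracted.

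In the miR-30 family 2 of 5 star assays, miR-30a* and miR-30e*, were read in every sample, and miR-30b*, miR-30c-1* and miR-30c-2* in none. In the let-7 family, whose guides restrain growth in differentiated cells, 1 of 7 star assays was read in every sample. This was let-7a*, at 32.67 and 32.87 in control and 32.33 and 32.09 in depleted BASCs, with a log2 change of -0.16 (limma, adjusted p = 0.694) that turned to 0.56 without a reference. let-7c-1*, let-7g* and let-7i* were below CT 35 in some samples, and let-7b*, let-7d* and let-7f* in none. The values of the first 3 there, 32.95 to 34.94, are averages of 2 wells, with a well without a CT counted as 35. The star strands of the imprinted Dlk1-Dio3 region gave no CT below 35 for any of 9 assays, and of 4 in the epithelial miR-200 and miR-141 group 1 was read, in 1 sample. Of 3 miR-29 stars 2 were measured in every sample, with a median log2 change of -0.13, or 0.59 without a reference, and of 4 stars of miR-23, miR-24 and miR-27 hairpins 3 were, with -0.38, or 0.34 without. The 2 measured stars of miR-15 hairpins had a median of -0.67, or 0.06 without a reference, and miR-99b* and miR-125b* one of -0.57, or 0.15 without. Both stars of the miR-199 and miR-214 group were measured. miR-199b* and miR-214* had opposite signs with U6, at 0.92 and -0.22, and were both positive without a reference, at 1.65 and 0.50. None of these lists held a star assay that passed the test.

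For 31 hairpins both strands had a CT below 35 in all samples. The strand difference is the ΔCT of the star minus that of the guide in the same sample, so that a positive value means that the star assay was read later. Assays differ in efficiency, and a difference between assays is therefore given in cycles and not as a ratio of copies. For let-7a, miR-7a and miR-29b the RefSeq name of the star carries a hairpin number and that of the guide does not. The guide assay may there also read other hairpins, and the strand difference need not be that of 1 hairpin. The median strand difference was 1.57 cycles, and it ran from -4.57 to 9.57. The guide was ahead in 22 hairpins by the mean of the 4 samples, and in 21 of them in each sample. The star was ahead in 9, in each sample, after subtraction of U6. In CT before that step the guide was ahead in control replicate 2 for miR-30e, miR-467a and miR-872, and for miR-872 also in depleted replicate 2. Across the 31 hairpins the mean ΔCT of the star and of the guide had a Pearson r of 0.02, a description over hairpins that share the 4 samples and the cards. miR-29a, the guide with the lowest ΔCT of the 31, had its star at a mean ΔCT of 13.6.

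The 9 hairpins with the star ahead were miR-7a, miR-877, miR-30a, miR-34c, miR-183, miR-467a, miR-193, miR-30e and miR-872. For miR-7a, whose guide is abundant in neural and endocrine cells, the star assay was read at 30.87 and 30.98 in control and 30.07 and 29.97 in depleted BASCs. Its guide was read at 34.97 and 34.80 in control and 33.75 and 34.99 in depleted BASCs, close to the ceiling, and the mean difference was -4.57. For miR-877 both assays are on card B, and U6 cancels. Its strand differences were -2.65 and -3.19 cycles in control and -2.31 and -2.68 cycles in depleted BASCs, and the groups overlapped. For miR-30a the strand differences were -2.77 and -2.81 in control and -1.72 and -1.42 in depleted BASCs. For miR-34c they were -2.72 and -2.77 in control and -0.95 and -0.97 in depleted BASCs, where the guide values differ in format from the rest, as described below. The star was ahead by less than 1 cycle for miR-193, miR-30e and miR-872. The mean CT values before the subtraction of U6 put the guide ahead by 0.08 cycles for miR-872 and the star ahead by 0.05 cycles for miR-30e.

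**Figure D3:**
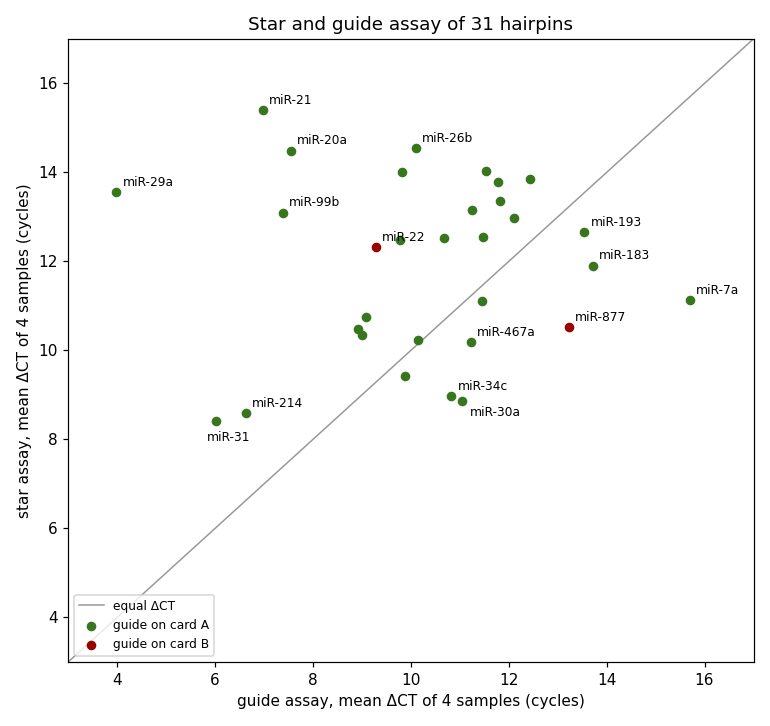
Mean ΔCT of the 4 samples, in cycles, of the star assay (y axis) against the guide assay (x axis) of 31 hairpins, with a line of equal ΔCT; green points have the guide on card A and red points on card B. The 22 points above the line have the guide ahead and the 9 below it the star, with miR-7a farthest below and miR-29a farthest above.

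The 5 hairpins with the largest excess of the guide were miR-29a, miR-21, miR-20a, miR-99b and miR-26b, with mean strand differences of 9.57, 8.42, 6.95, 5.72 and 4.44 cycles. miR-29a is known to restrain collagen genes in fibroblasts. Its star assay was read at 32.97 and 33.62 in control and 32.38 and 32.58 in depleted BASCs. miR-21, one of the most abundant miRNAs of cultured cells, had a star assay at 34.73 and 34.92 in control and 34.81 and 34.48 in depleted BASCs, within a cycle of the ceiling. For miR-31 and miR-214 both strands were strong. The star of miR-31 was 2.35 and 1.94 cycles behind its guide in control and 2.39 and 2.89 cycles in depleted BASCs.

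The 5′ bases of the strands differed with the order only in part. Among the 21 hairpins with the guide ahead and both sequences known, 12 guides and 2 stars began with U. Among the 7 with the star ahead, 4 guides and 3 stars did. The star was the strand of the 3′ arm in 6 of these 7 and in 14 of the 21. Within the first 4 bases, the guide had more A and U than the star in 10 of the 21 and in 2 of the 7, and the star had more in 5 and 1. The counts are small and were not tested.

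The last comparison asked whether the 2 strands of a hairpin moved together when c-Myc was depleted. After subtraction of U6 the strand difference rose in 30 of 31 hairpins, with a median rise of 0.73 cycles, and the groups did not overlap in 19, all with a rise. The U6 shift of card B relative to card A, 0.57 cycles, enters 29 of the 31 differences. Before U6 was subtracted the strand difference rose in 19 and fell in 12 hairpins, with a median of 0.27 cycles, and the groups did not overlap in 8, of which 5 rose and 3 fell. If the samples were interchangeable, a share of 0.333 would not overlap with 2 against 2, so 8 of 31 is no excess. For the 2 hairpins with both strands on card B, miR-877 and miR-22, the rises were 0.42 and 0.24 cycles, with overlapping groups in both. The 5 largest rises among hairpins without overlap were those of miR-20a, miR-34c, miR-99b, let-7a and miR-214, at 1.93, 1.79, 1.33, 1.26 and 1.24 cycles with U6 and 1.36, 1.21, 0.76, 0.69 and 0.67 cycles without. The groups of miR-99b and let-7a overlapped once U6 was left out, and those of miR-20a, miR-34c and miR-214 did not. No hairpin without overlap had a fall with U6. The single fall, of 0.34 cycles, was that of miR-29a.

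In 3 of these 5 hairpins the guide values differ in format from the rest. The CT values of miR-20a, miR-34c and miR-214 in the depleted samples reach 8 decimals, where the star assays have at most 6 throughout. Whether these values were read from the cards or computed is not given in the sources used here, and the changes of these 3 guides carry that doubt. Their guides had log2 changes of 1.05, 1.97 and 1.02, while their stars had -0.88, 0.19 and -0.22, the last turning to 0.50 without a reference. miR-34c was read at 30.65 and 30.98 in control and is listed at 28.69 and 28.70 in depleted BASCs (limma, adjusted p = 0.0254), the only guide of the 31 hairpins with an adjusted p below 0.05. Its star, from the same hairpin, was read at 28.58 and 28.95 and at 27.77 and 27.95. The median rise of the strand difference was 1.79 cycles in the 3 hairpins with such guide values and 0.62 in the other 28, or 1.21 and 0.20 cycles before U6 was subtracted. The part of the 8-decimal values in these differences was not tested. Outside the 31 hairpins, the guides miR-17 and miR-106b also have values with 8 decimals after depletion (limma, adjusted p = 0.0473 each). The guide miR-10b also passed, with a log2 change of 1.56 (limma, adjusted p = 0.0473), and its values have at most 6 decimals. miR-30a, whose guide has no values with 8 decimals, had a rise of 1.22 cycles with U6 and 0.65 without, and its groups did not overlap either way.

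**Figure D4:**
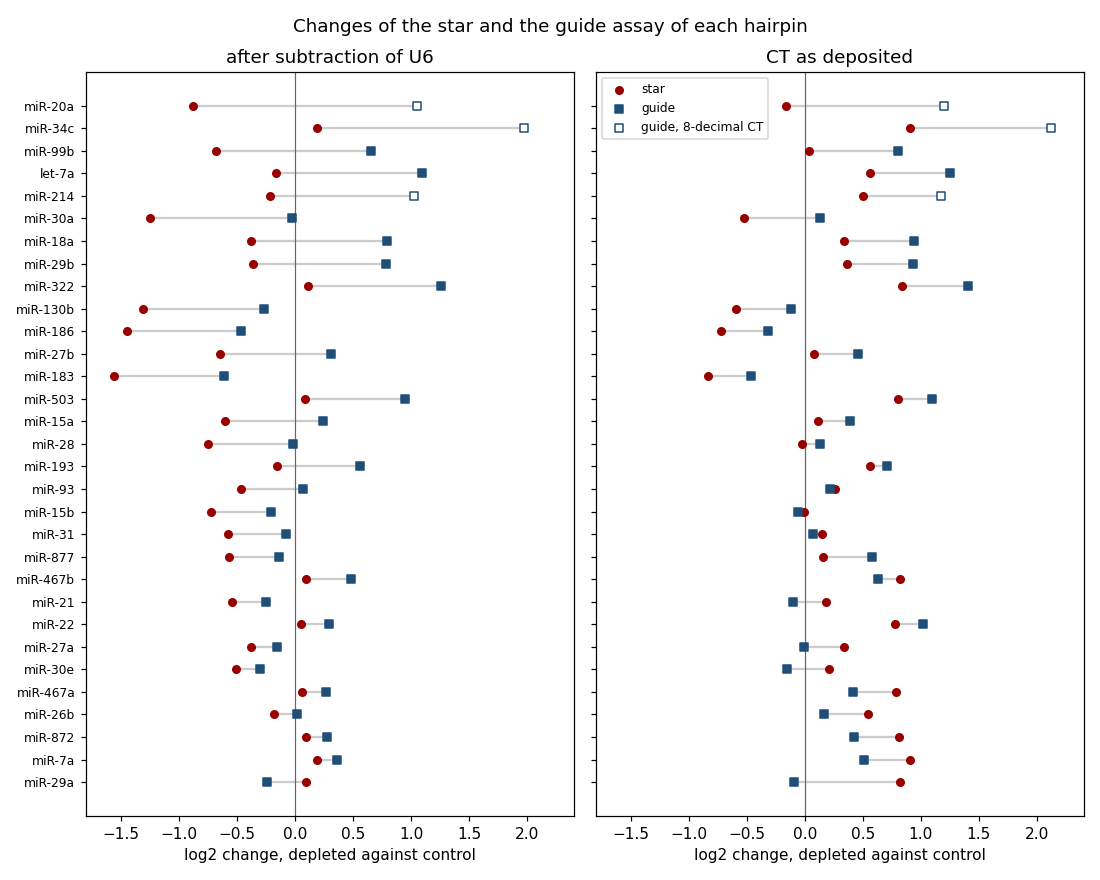
Log2 change after c-Myc depletion (x axis) of the star (red circles) and guide (blue squares) assay of 31 hairpins, sorted by the change of the strand difference, with U6 subtracted (left) and for CT as deposited (right); open squares mark guides with 8-decimal CT values in the depleted samples. On the left the star lies to the left of its guide in 30 of 31 hairpins, and on the right in 19.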

How the data were processed

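The CT values, exported from RQ manager, were deposited by the authors as cycles on a log2 scale, before any normalization. The submitters' processing notes name Partek 6.4. From it, wells without a CT or above 35 were set to 35, wells of an assay averaged, and the mean CT of U6 on the same card subtracted (ΔCT). Groups came from the sample labels. The depth of a PCR card is unknown, and the 2 samples per group limit the precision.

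Changes were tested with limma 3.58.1 in R 4.3.3 on minus ΔCT of the 189 mouse miRNAs below CT 35 in all samples, with Benjamini-Hochberg adjustment. The scripts were tested on simulated data. Tables and plots used Python 3.11.15, pandas 2.3.3 and matplotlib 3.10.9. Alternatives changed the reference, the filters, the wells used, the test and the samples.

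Assays named were those below an adjusted p of 0.05, the 10 lowest in ΔCT, those read in 1 group alone, hairpins with the star ahead, the 5 largest guide excesses, the 5 largest changes of the strand difference each way, and the miR-17, miR-34, miR-30 and let-7 stars. The members, lists and rules were chosen with earlier results of these data known. RefSeq held a sequence for 35 of the 40 star assays below CT 35 in all samples.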

Additional observations from a re-analysis of the deposited data

Results flagged for a closer look

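Assays for 19 rat star miRNAs lie on the same card and entered no comparison. Of these, rat miR-7a* and rat miR-30d* were below CT 35 in all 4 samples, with mean CT values of 29.9 and 34.6, while the plant blank gave no CT in any sample. Rat miR-7a* was read at 29.76 and 29.96 in control and 29.98 and 29.89 in depleted BASCs, beside 30.87 and 30.98 and 30.07 and 29.97 in the mouse miR-7a* assay. The rat assays of miR-28* and miR-135a* gave no CT below 35, although the mouse assays of the same names did. What the rat assays amplify in these cells was not tested.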

How the results depend on the processing

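Of 110 star assays, 40 were below CT 35 in all samples and 17 below 32. The number with an adjusted p below 0.05 was 0 with U6 and limma. It was 2 (miR-28* and miR-30a*) both with a lowest ΔCT below 10, where 6 star assays were tested, and with CT below 32 in all samples, where 17 were. It was 1 with a variance trend (miR-30a*, adjusted p = 0.0388) and 2 with no reference (miR-24-2* and miR-7a*, both higher), a setting chosen after seeing the data, and 0 under every other alternative, leaving out each sample included. Over all settings the adjusted p of miR-30a* was lowest, at 0.0283, with CT below 32. The study criteria held for miR-30a* with U6 and for 0 star assays with U6 averaged over both cards, medians within each card, no reference, quantile normalization or one-way analysis of variance. The median log2 change of the star assays, -0.38, was -0.10 with U6 averaged over both cards, -0.54 with a lowest ΔCT below 10, 0.061 with medians within each card, -0.20 with medians over both cards, -0.72 with no filter, where assays at the ceiling carry the U6 shift alone, 0.34 with no reference, -0.19 with quantile normalization and -0.15 with snoRNA135 and snoRNA202. The value with medians within each card is held near 0 by construction, since star assays are most of the tested assays of card B. With 1 sample left out the star median ranged from -0.41 to -0.22. The direction of miR-214* turned to 0.067 with U6 averaged over both cards, 0.22 with medians within each card, 0.50 with no reference, 0.28 with quantile normalization and 0.012 with the snoRNAs, and ranged from -0.58 to 0.15 with 1 sample left out. With no reference miR-15a*, miR-30e*, miR-31* and miR-93* turned to 0.12, 0.21, 0.15 and 0.26. The median strand difference, 1.57 cycles, was 1.98 before U6, 1.98 for the 49 hairpins with both strands below CT 35 in at least 1 sample, 0.093 for the 11 below CT 32 in all samples, 0.17 for the 2 on the same card, and 1.46 to 1.78 with 1 sample left out. The star was ahead in 5 of those 11 hairpins and in 1 of those 2, against 9 of 31. The causes of these differences were not tested beyond what the settings themselves change. With the replicate number as a block 0 star assays were called (7 at an unadjusted p below 0.05), and 2 of 189 miRNAs. Nothing in the labels pairs same-numbered samples beyond the number. Their deviations correlated at -0.01 over the miRNAs below CT 35 in all samples, which cannot show whether they shared a culture or a run. A CT near 35 limits 51 star assays to a bound.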
